A study of Rattus norvegicus with 87 samples.

Results

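Dissections of the rat lateral habenula were ranked by how much RNA of 2 medial habenula genes they held, and the rich end of that ranking was compared with the poor end. The score of a rat was the mean of the batch-centred log2 values of Chrnb4 and Chrna3, 2 nicotinic receptor subunit genes that mark medial habenula neurons. The dissections were thus chosen by the measured levels of these 2 genes. Within each rat batch, the rats with the highest and the lowest scores were kept, with the batch size divided by 3 and rounded down on each side. This gave 26 rich and 26 poor dissections, 52 of the 80 rats in batches 2, 3, 4 and 6, and 28 rats lay in the middle. The expression table held 81 rats, and the labels list 87. Batch 2 gave 5 rats per side, batch 3 gave 7, batch 4 gave 9 and batch 6 gave 5.

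All samples were bulk RNA-Seq libraries of polyadenylated RNA, 1 per animal, from young adult Heterogeneous Stock (HS) rats of both sexes. HS rats are an outbred line that descends from a cross of inbred founders, so each animal carries its own mosaic of alleles. None of the rats had received a drug or been tested for behaviour. The tissue from both sides of the brain was lifted by forceps out of thin frozen sections and pooled. Rich and poor are therefore names for samples sorted by a measurement and not for groups that the study made, and rich and poor rats had the same labelled origin and handling. Of the rich rats 13 were male, and of the poor rats 12.

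The habenula is a small paired structure above the thalamus. Its lateral nucleus holds mainly glutamatergic neurons that project to the midbrain, whereas the medial nucleus lies directly beside it along the third ventricle and sends acetylcholine and substance P neurons to the interpeduncular nucleus. Nicotinic receptors are channels of 5 subunits opened by acetylcholine. Those containing the alpha3 and beta4 subunits, encoded by Chrna3 and Chrnb4, are dense in the medial habenula and in its axons, and are much studied for the aversive effects of nicotine and for withdrawal. A bulk sample does not tell a larger number of medial habenula cells in the tissue from more RNA per cell. These 2 cannot be told apart here.

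Values are log2(normalized count + 1), where the normalized count is the read count of a gene after the authors' upper quartile scaling. A difference is the rich minus the poor value on this log2 scale, estimated with limma with rat batch as a covariate, and limma's p-values were adjusted over all genes by the Benjamini-Hochberg method with a threshold of 0.05. Where rich and poor rats are said to overlap or not, the batch mean had been subtracted from every value first. The lowest, median and highest levels are given as deposited, so they also contain the differences between batches.

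The starts of the genes that the comparison turns on are shown with the score genes first. Both score genes lie on the minus strand of the same stretch of rat chromosome 8, and Chat, the gene of the enzyme that makes acetylcholine, lies on chromosome 16. The 3 promoter windows run from 250 bases before to 50 bases after the annotated start, are taken from RefSeq with the build GRCr8, and are written 5′ to 3′ on the strand of the gene. Capitals mark the letters GGGCGG or CCGCCC, the core of a GC box in either orientation. Chrnb4 occupies chr8:64333060-64333359, Chrna3 chr8:64311202-64311501 and Chat chr16:7723367-7723666.
Chrnb4: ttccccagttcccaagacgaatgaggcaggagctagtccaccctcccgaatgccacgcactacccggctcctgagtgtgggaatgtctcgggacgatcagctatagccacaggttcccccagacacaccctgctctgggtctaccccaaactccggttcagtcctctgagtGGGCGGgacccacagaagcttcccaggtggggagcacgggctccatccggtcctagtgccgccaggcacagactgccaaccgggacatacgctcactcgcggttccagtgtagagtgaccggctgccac
Chrna3: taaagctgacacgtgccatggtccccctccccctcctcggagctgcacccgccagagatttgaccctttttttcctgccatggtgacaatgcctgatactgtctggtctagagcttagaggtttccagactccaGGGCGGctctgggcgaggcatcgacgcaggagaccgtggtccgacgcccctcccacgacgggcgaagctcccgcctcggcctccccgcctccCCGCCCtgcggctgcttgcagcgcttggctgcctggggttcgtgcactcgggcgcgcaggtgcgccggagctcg
Chat: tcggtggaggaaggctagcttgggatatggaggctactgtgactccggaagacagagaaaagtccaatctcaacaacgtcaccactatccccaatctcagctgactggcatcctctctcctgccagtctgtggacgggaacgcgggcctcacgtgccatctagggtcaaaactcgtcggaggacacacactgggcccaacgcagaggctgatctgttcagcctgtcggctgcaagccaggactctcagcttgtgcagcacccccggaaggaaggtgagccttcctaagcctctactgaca
The Chrna3 window held a GC box in each orientation, the Chrnb4 window held 1, and the Chat window held none. These letters occur on either strand in 33.1% of the 33469 RefSeq promoters. The letters were counted for 18 genes, which are the score genes, the listed medial habenula genes with a symbol and the largest increases described below. Of these, 15 had a promoter in RefSeq, and 9 of the 15 windows held the letters. The letters ATTAAT, a core shared by sites of POU4F factors, which are made by habenula neurons, occurred in 5.21% of all promoters and in 1 of the 15, that of Sema3e. The 2 motifs have no letter in common and cannot overlap. A match is a description of the window only.

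The score genes themselves are described and not tested, since they chose the rats. Chrnb4 ran from 10.60 to 11.72 in rich dissections with a median of 11.27, and from 9.42 to 10.87 in poor ones with a median of 10.33. Chrna3 ran from 12.45 to 13.55 with a median of 13.21 in the rich, and from 11.07 to 12.95 with a median of 12.20 in the poor. Both differed by 0.94, or 1.91-fold, so a rich dissection held somewhat less than double the transcript of a poor one. The middle rats had medians of 10.88 and 12.85.

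The score ran from -1.67, in a poor rat of batch 4, to 0.91, in a rich rat of batch 2. The next lowest score after -1.67 was -1.01, also in batch 4. In batch 2 the lowest rich score was 0.26 beside 0.18 in the nearest middle rat, and the highest poor score was -0.15 beside -0.10. In batch 3 these were 0.31 beside 0.17, and -0.15 beside -0.08. In batch 4 the rich edge was narrow, at 0.28 beside 0.27, and the poor edge lay at -0.18 beside -0.14. In batch 6 they were 0.22 beside 0.20, and -0.25 beside -0.19. The edges of the groups thus lay close to the middle rats in each batch.

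**Figure D1:**
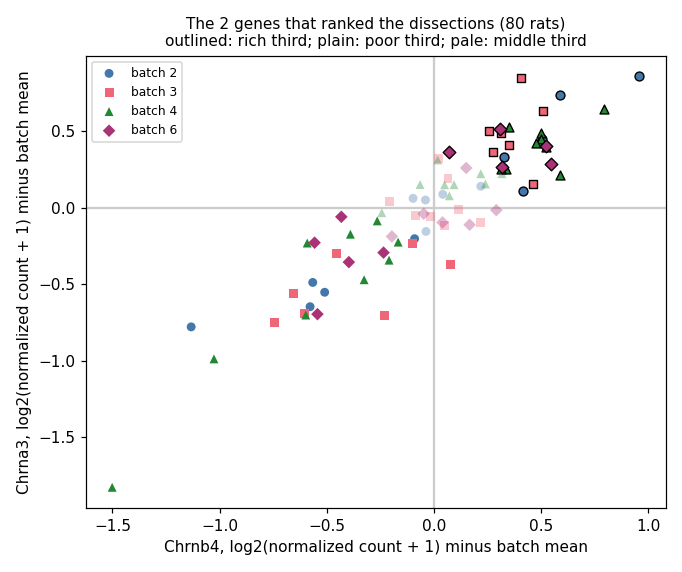
Batch-centred log2 values of Chrnb4 (x axis) and Chrna3 (y axis) in 80 rats, with 1 point per rat, coloured and shaped by rat batch. Outlined points are the 26 rich, plain points the 26 poor and pale points the 28 middle rats. The points lie along a diagonal, and a single poor rat of batch 4, whose score was -1.67, stands apart at its lower left end.

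Each score gene was then read in rats ranked by the other gene alone, so that the gene read had no part in the ranking. Ranked by Chrnb4, rich rats had Chrna3 levels between 12.45 and 13.55 with a median of 13.15, and poor rats between 11.07 and 12.95 with a median of 12.26. The difference was 0.89 (SE 0.0869), and 25 of 26 rich rats lay above every poor rat after centring. Ranked by Chrna3, rich rats had Chrnb4 levels between 10.36 and 11.72 with a median of 11.26, and poor rats between 9.42 and 10.90 with a median of 10.33. The difference was 0.88 (SE 0.0788), and 23 of 26 rich rats lay above every poor rat. These values too are a description with no test. Both genes belong to the score, and the pair was chosen with earlier results of the same rats known. They also lie on the same stretch of chromosome 8, and whether that ties their levels together was not tested.

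Across the other 17510 genes, 744 were higher in rich dissections, which is 4.25% of those tested, and 605 were lower, which is 3.46%. At an unadjusted p under 0.05 limma gave 3818 genes in both directions. The increases were the larger changes. The median difference was 0.30 among the genes that rose and -0.21 among those that fell, and 195 of the higher genes exceeded 0.5, whereas 15 of the lower genes fell below -0.5. The median over all genes was -0.00103, in values that the authors had scaled to a common upper quartile. With 20 expression components as further covariates, 1 gene was higher and 0 were lower with limma (947 at an unadjusted p under 0.05). Each of the 65 named genes with a call lost it. These components were computed from the same expression values, score genes included. They can therefore take up the difference between rich and poor itself, and this fit cannot tell whether that difference is real. The 28 middle rats had taken no part in the comparison of rich with poor. Their mean lay between those of the rich and the poor for 734 of the 744 higher and 590 of the 605 lower genes. Over all genes this share was 49.9%. The called genes were chosen for a clear gap between rich and poor, in which a middle mean falls easily. The share over all genes is therefore not a like comparison, and these counts carry no test.

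**Figure D2:**
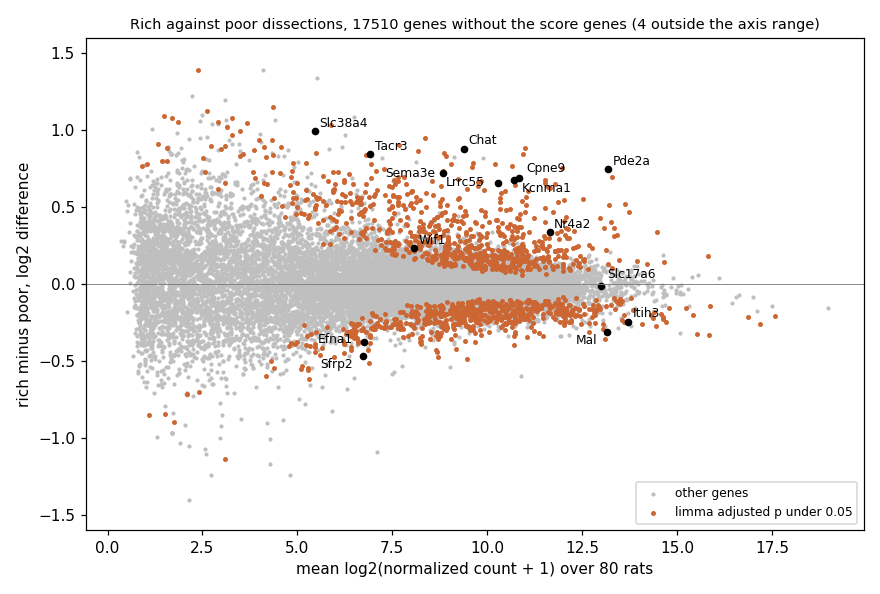
Rich minus poor log2 difference (y axis) against the mean log2(normalized count + 1) over 80 rats (x axis) for 17510 genes, with genes at a limma adjusted p under 0.05 in orange, other genes in grey and 15 genes named in black. Among genes with a mean over 5, those that rose reach further from 0 than those that fell, with 143 above 0.5 and 6 below -0.5. A total of 4 genes lie outside the drawn range.

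A symbol could be given to 3282 of the 17512 gene IDs, from pairs of ID and symbol in the study's own tables of genes with a mapped expression or splicing locus. The genes named here by symbol, apart from Chrna3, are therefore all genes with such a locus in at least 1 of 5 brain regions. Of the 3280 with a symbol besides the score genes, 5.85% were higher and 4.18% were lower, 329 genes in all. Each list of cell type genes below could be read only for the members with a symbol.

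Of 19 medial habenula genes listed, 3 had a symbol, and all 3 were higher in rich dissections. The median of their differences was 0.66, beside -0.00103 for all genes, and their summed normalized count ran from 1607 to 4238 with a median of 3009.5 in rich and from 869 to 2742 with a median of 1801.5 in poor dissections. Chat, choline acetyltransferase, which defines the cholinergic ventral part of the medial habenula, ranged from 9.25 to 10.46 (median 9.85) in rich and from 7.28 to 9.95 (median 8.89) in poor dissections. It was higher by 0.88 (SE 0.119, limma adjusted p 3.23e-07), or 1.84-fold, and 15 of 26 rich rats lay above every poor rat. The difference was 1.04, 0.84, 0.88 and 0.76 in batches 2, 3, 4 and 6, so each batch showed it at nearly the size of the score genes.

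Lrrc55 encodes a leucine-rich accessory subunit of large-conductance potassium channels and was listed here as a medial habenula gene. Its level was 9.36 to 11.46 (median 10.78) in rich and 8.57 to 10.67 (median 9.93) in poor dissections. The difference was 0.66 (SE 0.0969, limma adjusted p 2.12e-06), and 17 of 26 rich rats exceeded all poor rats. It varied from 1.11 in batch 2 to 0.21 in batch 3. Wif1, a secreted inhibitor of Wnt ligands, was at 7.61 to 8.70 (median 8.22) in rich and 7.43 to 8.43 (median 7.98) in poor rats. Its difference was small, 0.23 (SE 0.0591, limma adjusted p 0.00784), and 0 of 26 rich rats exceeded every poor rat. The call on Wif1 was lost without batch 2, 4 or 6, when the limma adjusted p was 0.0806, 0.183 and 0.0513, and with the recovered library total as a covariate, when it was 0.0503.

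**Figure D3:**
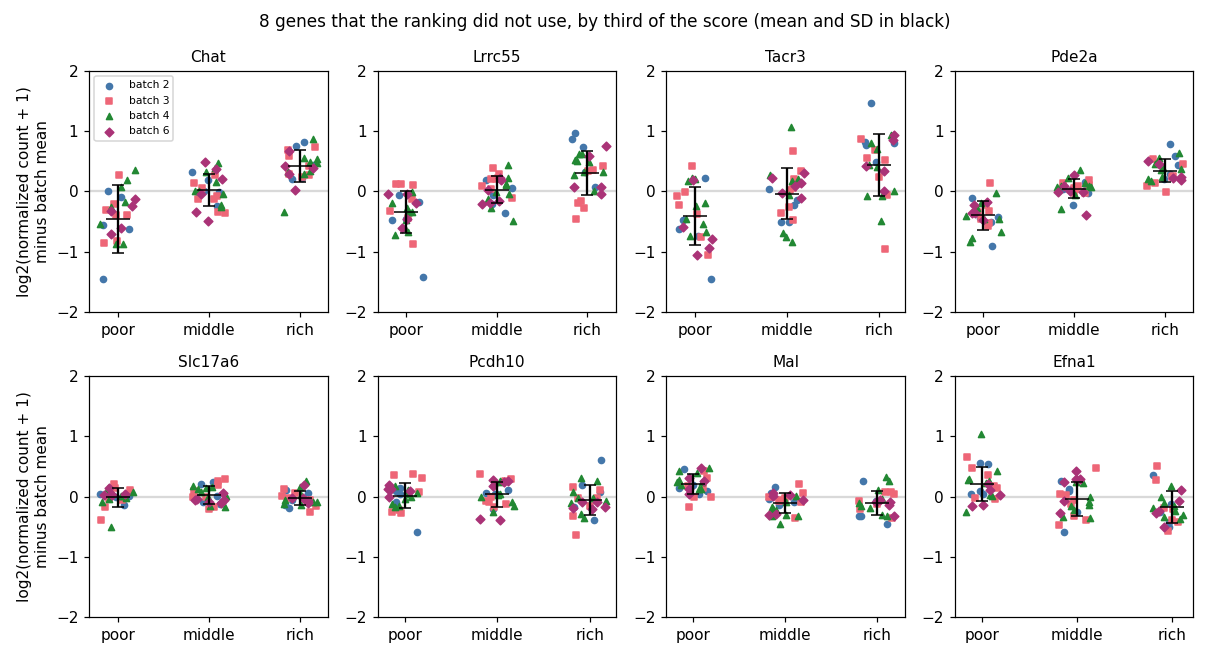
Batch-centred log2 values (y axis) of 8 genes that had no part in the ranking, in poor, middle and rich dissections (x axis), with 1 point per rat coloured by rat batch and the mean and SD in black. Chat, Lrrc55, Tacr3 and Pde2a step up from poor through middle to rich, Mal and Efna1 lie lower in rich than in poor rats, and Slc17a6 and Pcdh10 stay near 0 in all 3 sets.

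Genes of the habenula as a whole behaved unevenly. Of 6 listed, 2 had a symbol, and 1 of them rose. Slc17a6 encodes the vesicular glutamate transporter of both habenular nuclei and of the thalamus. It lay between 12.74 and 13.27 (median 12.96) in rich and between 12.50 and 13.20 (median 13.04) in poor dissections, a difference of -0.01 (SE 0.0401, limma adjusted p 0.88). The 2 sets overlapped almost entirely. Nr4a2, a nuclear receptor transcription factor made in habenula neurons, lay between 11.42 and 12.23 (median 11.82) in rich and between 11.07 and 11.85 (median 11.52) in poor dissections. It was higher by 0.34 (SE 0.052, limma adjusted p 5.73e-06), with 9 of 26 rich rats above every poor one. Slc17a6 was among the high genes of all 52 libraries, with 12.50 as its lowest value. Pou4f1 and Gpr151, the genes that most define habenula neurons, had no symbol among those used here and were not analysed.

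For lateral habenula neurons, 1 of 6 listed genes had a symbol. Pcdh10, a protocadherin of the lateral nucleus, was at 9.85 to 10.96 (median 10.45) in rich and 9.77 to 10.87 (median 10.52) in poor dissections. It differed by -0.07 (SE 0.0646, limma adjusted p 0.527), with 1 of 26 rich rats above all poor rats and 1 below them. Its sign differed between batches, from 0.14 in batch 2 to -0.25 in batch 6.

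Among the other neuronal nicotinic subunits, 2 of 9 listed had a symbol and 1 rose. Chrna4 encodes the alpha4 subunit, which pairs with beta2 in the high-affinity nicotine receptors found through much of the brain. It was at 10.12 to 11.24 (median 10.54) in rich and 9.66 to 10.95 (median 10.18) in poor dissections, a difference of 0.33 (SE 0.0681, limma adjusted p 0.000808). Only 2 of 26 rich rats lay above all poor ones, and the difference was 0.58 in batch 4 but 0.05 in batch 3. Without batch 4 it was 0.19 (limma adjusted p 0.293). Chrna7, whose alpha7 subunit forms receptors by itself, was at 5.98 to 7.83 (median 7.19) in rich and 5.73 to 7.65 (median 7.02) in poor rats. Its difference of 0.09 (SE 0.11, limma adjusted p 0.649) was smaller than its error.

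The muscarinic receptor genes gave no call. Chrm5 differed by 0.06 (limma adjusted p 0.836) and Chrm1 by -0.33 (limma adjusted p 0.288), so of the 9 cholinergic genes listed 3 had a symbol, and Chat alone was called. Hykk, a hydroxylysine kinase gene that neighbours the nicotinic cluster, was at 0.00 to 5.21 (median 4.46) in rich and 2.00 to 5.39 (median 4.36) in poor dissections and differed by 0.03 (SE 0.218, limma adjusted p 0.947). It was the single member with a symbol among 8 listed neighbours, and its level was near the bottom of the range measured.

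The other named genes were the 15 largest differences in each direction among genes with a symbol, a call and a mean log2 value of at least 5. Counted with Chat and Lrrc55, which were also among them, the 15 that rose differed by between 0.64 and 0.99. Among these 15, Pde2a gave the smallest p. It encodes a phosphodiesterase that cyclic GMP stimulates to break down cyclic AMP, and it was at 12.81 to 14.01 (median 13.62) in rich and 12.23 to 13.37 (median 12.82) in poor dissections. The difference was 0.74 (SE 0.0594, limma adjusted p 2.6e-13), or 1.67-fold. After centring, 24 of 26 rich rats lay above every poor rat, nearly the separation of the score genes.

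Several of the 15 encode membrane receptors and channels. Tacr3, the receptor of neurokinin B, was at 5.58 to 8.28 (median 7.47) in rich and 5.36 to 7.42 (median 6.46) in poor dissections, a difference of 0.84 (SE 0.137, limma adjusted p 1.45e-05). Neurokinin B and substance P are the tachykinins of the medial habenula pathway, and their precursor genes had no symbol here. Kcnma1, the pore of the large-conductance potassium channel that LRRC55 protein modulates, was at 9.51 to 12.17 (median 11.29) against 9.12 to 11.31 (median 10.46). It was higher by 0.68 (SE 0.108, limma adjusted p 1.1e-05), and 11 of 26 rich rats lay above all poor rats. Mlnr, named for the motilin receptor, was higher by 0.67 (SE 0.126, limma adjusted p 0.000152), a call lost without batch 4 (limma adjusted p 0.0704).

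Slc38a4, an amino acid transporter, had the widest difference of the genes with a symbol that were named, 0.99 (SE 0.153, limma adjusted p 5.5e-06). Its level was low, at 4.91 to 6.60 (median 6.11) in rich and 3.00 to 5.83 (median 4.95) in poor dissections, and 16 of 26 rich rats lay above all poor rats. Its difference was 1.67 in batch 2 and 0.36 in batch 3.

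Genes of axon guidance, membrane traffic and glycolipid synthesis were also among the 15. Sema3e, a secreted semaphorin that guides axons, was at 7.58 to 9.95 (median 9.36) in rich and 7.27 to 9.05 (median 8.58) in poor rats, a difference of 0.72 (SE 0.106, limma adjusted p 2.12e-06). Cpne9, a copine that binds membranes in a calcium-dependent way, was at 10.41 to 11.68 (median 11.18) against 9.81 to 11.15 (median 10.49), a difference of 0.69 (SE 0.0763, limma adjusted p 2.23e-09). Both ranges overlapped between rich and poor rats, with 10 and 19 of 26 rich rats above all poor ones. St6galnac5, a sialyltransferase of brain gangliosides, differed by 0.68 (SE 0.0697, limma adjusted p 2.09e-10), and 22 of 26 rich rats lay above all poor rats. Syndig1l, a relative of a synapse differentiation gene, differed by 0.66 and Tmem131l, a transmembrane protein gene, by 0.64.

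Dnah6, a heavy chain of the dynein motor of cilia, was the least uniform of the 15. It was at 3.70 to 8.06 (median 6.59) in rich and 4.17 to 6.64 (median 5.57) in poor dissections and differed by 0.73 (SE 0.169, limma adjusted p 0.00314). The difference was 1.22 in batch 2 and 1.21 in batch 4, but -0.26 in batch 3. The call was lost without batch 2 (limma adjusted p 0.0519) or batch 4 (limma adjusted p 0.37, difference 0.47), and without batch 3 the difference was 1.09. The predicted genes AABR07013843.1 and AABR07007068.1 differed by 0.70 and 0.65. For the latter, 25 of 26 rich rats lay above every poor rat. Of genes without a symbol, ENSRNOG00000005731 and ENSRNOG00000062160 differed by 1.03 and 0.95.

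Of the 15 genes with the most negative differences, 14 are described. They fell by between 0.29 and 0.47, each less than any of the 15 that rose had risen. Sfrp2, a secreted frizzled-related protein that binds Wnt ligands, was at 5.55 to 7.48 (median 6.51) in rich and 5.83 to 7.76 (median 6.9998) in poor dissections, a difference of -0.47 (SE 0.1, limma adjusted p 0.00111). Efna1, a membrane-bound ephrin ligand, was at 6.17 to 7.40 (median 6.51) against 6.41 to 7.70 (median 6.89), a difference of -0.38 (SE 0.08, limma adjusted p 0.00102). The sets overlapped in both, but 11 of 26 rich rats lay below every poor rat for Efna1. The call on Efna1 was lost without batch 4 (limma adjusted p 0.054).

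Kcnj16, an inward rectifier potassium channel subunit best known from glia and kidney, differed by -0.30 (SE 0.0607, limma adjusted p 0.000593). Mal, a proteolipid of compact myelin, was at 12.65 to 13.45 (median 12.99) in rich and 13.02 to 13.70 (median 13.35) in poor dissections, a difference of -0.31 (SE 0.0503, limma adjusted p 1.18e-05), or 0.805 times the poor level. Rich dissections thus held less of these genes.

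The remaining 10 were Ninj2 (difference -0.37), Qprt (-0.35), S100a16 (-0.34), Macrod1 (-0.34), Cd302 (-0.33), Plaat3 (-0.31), Hebp1 (-0.30), Egfl7 (-0.29), Agmo (-0.29) and Oaf (-0.29), with limma adjusted p from 0.00152 for Plaat3 to 0.0387 for Agmo. Ninj2 encodes an adhesion molecule of glia, Qprt an enzyme that removes quinolinic acid on the way to NAD, and Egfl7 a protein secreted by endothelial cells. All 10 calls were lost without batch 4, at limma adjusted p from 0.0883 for Ninj2 to 0.465 for Egfl7, whose difference was then -0.17. All 10 were also lost with the myelin covariate described below, at limma adjusted p from 0.0536 for Cd302 to 0.685 for Agmo. Egfl7 was 0.08 higher in the rich rats of batch 6. Of genes without a symbol, ENSRNOG00000048651 and ENSRNOG00000019620 differed by -0.62 and -0.56, and both calls were lost without batch 4 (limma adjusted p 0.338 and 0.168) or batch 2 (0.166 and 0.0508). Without batch 4 the first was -0.38, and without batch 3 the second was -0.37 and still called.

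**Figure D4:**
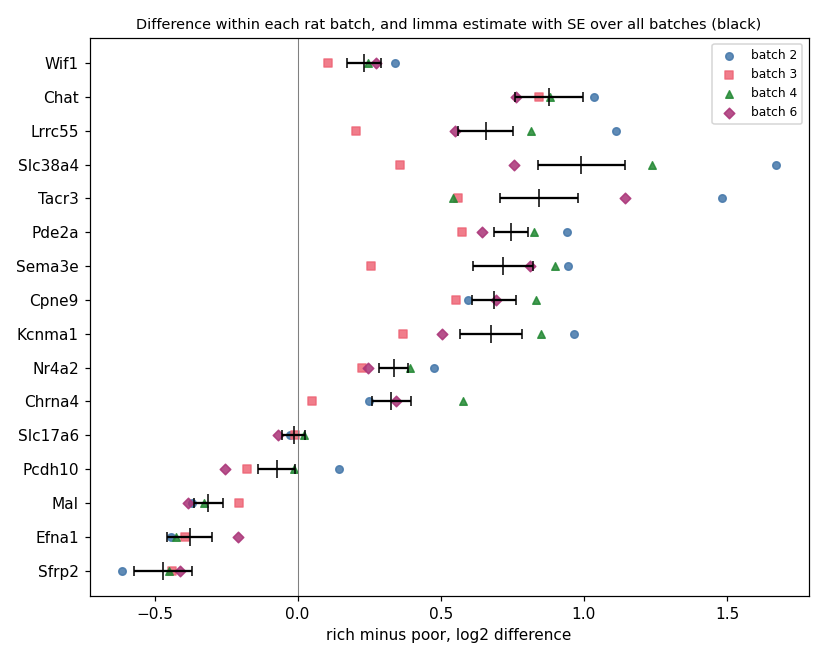
Rich minus poor log2 difference (x axis) of 16 genes (y axis) within each rat batch, as coloured points, and the limma estimate with its SE over all 4 batches in black. Chat, Pde2a and Cpne9 lie at 0.55 or above in every batch, batch 3 gives the smallest difference for Lrrc55, Slc38a4 and Sema3e, and Slc17a6 lies at 0 in all batches to within 0.07.

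The same comparison was made within each batch. Batch 2 gave 7 higher (0.04%) and 1 lower gene (0.00571%), batch 4 gave 203 higher (1.16%) and 27 lower (0.154%), and batch 6 gave 80 higher (0.457%) and 12 lower (0.0685%). Batch 3 gave 0 in either direction with limma, and 663 genes at an unadjusted p under 0.05. Directions held better than calls. Of the 744 genes that were higher over all batches, 697 were also higher in batch 3, and 694 were higher in all 4 batches. Of the 605 lower genes, 586 were lower in batch 3 and 570 in all 4. Each batch took part in choosing these genes, so these shares are partly set by the choice. A limma test of whether the difference varied between batches gave 0 genes, with 692 at an unadjusted p under 0.05, and for variation between the sexes it gave 0, with 453.

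Batch 3 was also the batch whose columns stand in more than 1 alphabetical run of the table, a split that the labels do not explain. Its poor rats were 3, 3 and 1 in runs 1, 2 and 3, and its rich rats 1, 4 and 2. Mean Chrna3 in batch 3 was 12.04, 12.40 and 12.50 in the 3 runs. With the run as a covariate within batch 3 there were again 0 calls.

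Markers of other tissues were read for the cells that a dissection next to the lateral habenula could hold. Of 13 listed myelin genes 2 had a symbol, with 0 higher and 1, Mal, lower. Opalin, an oligodendrocyte membrane protein, was at 11.23 to 12.15 (median 11.69) in rich and 11.05 to 12.74 (median 11.96) in poor rats and differed by -0.21 (limma adjusted p 0.116). The summed normalized count of both ran from 9972 to 14836 (median 11613) in rich and from 12575 to 17888 (median 14301) in poor dissections. When the mean of these 2 genes was added as a covariate, 354 genes were higher and 183 lower. Of the 65 named genes with a call, 29 lost it in that fit. Mal, itself in the covariate, was among them, as were Chrna4 (0.23, limma adjusted p 0.113), Mlnr (0.40, limma adjusted p 0.113), Dnah6 (0.48, limma adjusted p 0.186) and Efna1 (-0.32, limma adjusted p 0.0576). Chat then differed by 0.89 and Pde2a by 0.65, both still past the threshold.

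Of 9 microglial genes 4 had a symbol, with 0 higher and 1 lower. C1qc, a chain of the first complement component, differed by -0.28 (SE 0.0835, limma adjusted p 0.0286), and C1qa by -0.24 (limma adjusted p 0.0791). The call on C1qc was lost without batch 2, 4 or 6 (limma adjusted p 0.122, 0.278 and 0.0857), with narrower ends of the ranking (0.0715), with the myelin covariate (0.0667) and with the recovered total (0.0545). Their summed counts were 1145 to 2666 (median 1681) in rich and 1198 to 3288 (median 2001) in poor dissections. The 1 astrocyte gene of 9 with a symbol, Aldh1l1, differed by -0.13 (limma adjusted p 0.21), at summed counts of 385 to 795 in rich and 466 to 800 in poor rats. The part of glial RNA in the differences of other genes was not tested beyond the myelin covariate.

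Of 13 thalamic genes 2 had a symbol. Calb1, calbindin, was higher by 0.24 (SE 0.0662, limma adjusted p 0.0134), a call lost without batch 2, 3 or 4 (limma adjusted p 0.0557, 0.0606 and 0.0633), with the myelin covariate (0.285, difference 0.16) and with the recovered total (0.0953). Ntng1 differed by -0.06 (limma adjusted p 0.78). Their summed counts were 2887 at the median and up to 4730 in rich, and 2525 at the median and up to 4097 in poor dissections. Of 7 hippocampal genes 4 had a symbol and 1 was called, Neurod6, a low gene higher by 0.56 (limma adjusted p 0.0161). That call was lost without batch 4 (difference 0.34, limma adjusted p 0.499) or batch 6 (0.0984), with narrower ends (0.143), with the myelin covariate (0.111) and with the recovered total (0.108), and the gene is left out by a minimum mean of 5. Their summed counts were 753 to 1173 (median 961) against 723 to 1193 (median 991.5), so the sum did not rise with the score. Slc32a1, the GABA transporter of vesicles and the only 1 of 5 listed GABA neuron genes with a symbol, differed by -0.19 (limma adjusted p 0.505), at 19 to 135 counts in rich and 28 to 111 in poor rats.

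The choroid plexus and the ependyma line the ventricle beside the medial habenula. Of 12 choroid plexus genes 5 had a symbol and 0 were called in either direction. Aqp1, a water channel of choroid epithelium, was at 3.00 to 10.14 (median 7.77) in rich and 2.58 to 10.21 (median 7.31) in poor dissections and differed by -0.01 (SE 0.402, limma adjusted p 0.99). Within batch 6, though, the rich rats had 2.75 more of Aqp1, 2.24 more of the bicarbonate transporter gene Slc4a5 and 0.94 more of Enpp2, and in batch 3 Aqp1 and Slc4a5 were lower by -0.89 and -0.69. Summed counts of the list ran from 2960 to 21506 (median 6842) in rich and from 3070 to 19047 (median 5902.5) in poor rats. With the mean of this list as a covariate 788 genes were higher and 631 lower. The ependymal list had 1 of 6 genes with a symbol, Mia, at 1 to 17 counts in rich and 0 to 15 in poor rats and with no call.

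Fosb, the 1 immediate-early gene of 12 with a symbol, differed by 0.42 (SE 0.195, limma adjusted p 0.187). The 2 haemoglobin genes of 7 blood genes were not called, at summed counts of 954 to 8907 in rich and 863 to 20978 in poor rats. Stmn2, a stathmin of growing neurites and 1 of 7 general neuronal genes, was lower by -0.10 (SE 0.0327, limma adjusted p 0.0412), at 6177 to 9436 counts (median 6876.5) in rich and 6811 to 9721 (median 7484) in poor dissections. The call was lost in 9 alternatives besides the 20 components, among them without batch 2, 4 or 6 (limma adjusted p 0.176, 0.511 and 0.205) and without the rat of lowest score (0.0601). None of 7 endothelial genes had a symbol.

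Library measures of the 2 sets were close. Genes listed at 0 numbered 601 ± 369 (SD, n = 26) in rich and 665 ± 339 (SD, n = 26) in poor rats, a batch-centred difference of -63.2 (permutation p within batches 0.493, adjusted 0.847). The library total before scaling, which could be recovered for 45 of the 52, was 18.6 ± 3.09 M counts (SD, n = 23) against 19.1 ± 5.64 M (SD, n = 22), where M is 1e+06 counts (permutation p 0.635, adjusted 0.847). The total after scaling was 17.1 ± 0.679 M in rich and 17.4 ± 0.705 M in poor rats. This difference of -0.357 M had a permutation p of 0.00934 (adjusted 0.0374), so poor libraries summed to slightly more at the same upper quartile. The share of males differed by 3.85 percentage points (permutation p 1, adjusted 1). The 4 p-values were two-sided, from 100000 permutations, and were adjusted over these 4 tests. Over all 81 rats the recovered total was known for 69 and ran from 10.4 to 36.9 M.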

How the data were processed

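RNA-Seq libraries were made from the lateral habenula of HS rats. After trimming by cutadapt, the authors obtained estimated counts from RSEM on Ensembl transcripts and scaled them to a common upper quartile in DESeq2. Libraries and genes with few reads were dropped. Versions of these tools are not given in the sources used here. The authors deposited log2 values after adding a pseudocount of 1 to each adjusted count, in which the upper quartile over genes was 853 to 870 in every rat. Small differences in low genes are therefore understated, and genes with near-identical copies or antisense partners are uncertain. The 6 rats that the authors had removed were not analysed here.

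The score, the ranking and all lists were chosen with earlier results of these data known. Rich and poor rats were compared with limma 3.58.1 in R 4.3.3 (lmFit, eBayes with an intensity trend) on all 17512 genes, two-sided, with rat batch as a covariate and Benjamini-Hochberg adjustment over all genes at a threshold of 0.05. The score genes were left out of counts. The limma fit and the recovery of library totals were tested on simulated data. In the simulated limma fit, 57% of differences of 0.25 and 89% of differences of 0.5 were called. Of all its calls, 3.95% were false. The simulated noise was normal and drawn for each gene independently. These shares therefore do not cover variation shared between genes and need not hold for the measured values. Library totals before scaling were recovered from the steps among low whole numbers by maximum likelihood, where the best factor led by 10 log-likelihood units. The batch-centred means of library measures were compared by 100000 permutations within batches.

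The deposited table names genes by Ensembl ID. Symbols for 3281 IDs were taken from the pairs of ID and symbol in the study's supplementary tables, which list genes with a mapped locus, and that of Chrna3 from its known ID, so most genes could not be named. Named were the score genes, all members with a symbol of the lists for medial habenula, habenula-wide, lateral habenula and other nicotinic genes, the 15 largest called differences in each direction that had a mean log2 value of 5 or more, and up to 3 members with the highest mean of each other list. Of the lower genes 1 is not reported here. Named by ID were the called genes without a symbol with the largest differences in each direction, at the same minimum mean. Genes outside these rules are those of the closing observations and Neurod6, named after their values were seen. Alternatives changed the pseudocount (8), filter, transformation, covariates, score and ranking, kept narrower ends with the batch size divided by 4, or left out a batch. Scripts ran in Python 3.11.15, with pandas 2.3.3 and numpy 2.4.6 for tables, scipy 1.17.1 for tests and matplotlib 3.10.9 for plots.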

Additional observations from a re-analysis of the deposited data

Results flagged for a closer look

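For the rats of each batch at each end of the ranking, 8 sets in all, 4 measures were examined: the score, the genes listed at 0, and the library total before and after scaling. Of these 32 groups of values, 5 held a value far from the rest by Dixon's criterion for small groups. Chance alone would give 1.6 if each group were an unselected sample. The score itself formed the sets, so its groups are cut ends of a ranking and that number does not hold for them. Among the poor rats of batch 2, rat 7 had a recovered library total of 35.6 M counts, and 3 others lay between 15.3 and 18.4 M. Among the poor rats of batch 4, rat 1 had a recovered total of 30.5 M, and 6 others lay between 11.7 and 19.4 M. Rat 20 of batch 3 was listed at 0 for 1550 genes, whereas the 6 other poor rats of that batch were at 381 to 858. Rat 5 of batch 6 was listed at 0 for 1110 genes, and the 4 other poor rats of that batch were at 386 to 521. The highest score of batch 4, 0.72 in rat 10, lay apart from the 8 other rich rats at 0.28 to 0.49, which is a description with no test.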

How the results depend on the processing

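Precision was limited by sample number within batches and by symbols, since most members of the lists could not be named. Counts moved by over 1.5 times under several alternatives, and the cause was not tested except where stated. With the continuous score over all 80 rats, which uses more rats, 2474 genes were higher and 2741 lower. With ranks formed within batch and column run these were 1331 and 1245, with the myelin mean as a covariate 354 and 183, and with 20 expression components as covariates 1 and 0 (947 at an unadjusted p under 0.05). The column run as a covariate gave 921 lower genes, and the recovered library total, a covariate added after the data were examined that leaves out the 7 rats without a total, gave 384. Leaving out a batch removes rats. From 744 higher and 605 lower genes in the main fit, both counts fell without batch 2, 4 or 6 but rose without batch 3. Higher genes were 369 without batch 2, 1335 without batch 3, 294 without batch 4 and 460 without batch 6. Lower genes were 187, 920, 113 and 291 in the same order. Without the rat of lowest score, another added alternative, 666 were higher and 463 lower.

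Of the 65 named genes past the threshold, all 65 lost the call with 20 components, and 33 kept it under each of the other 22 alternatives. In all, 202 values were no longer past the threshold, and 5 of these had changed sign. The call was lost by 22 genes without batch 2, 4 without batch 3, 29 without batch 4 and 11 without batch 6. The difference in genes listed at 0 was -184 without batch 3, now past the threshold, and 54.1 without batch 4, reversed. The scaled total differed by -0.29 M without batch 4, no longer past it. The share of males reversed to -5.56 points with narrower ends (the batch size divided by 4) and -4.76 without batch 2.

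Differences of named genes that changed sign were mostly near 0. With 20 components these were Chrna7 (-0.028), Sfrp2 (0.010), Oaf (0.016), Rlbp1 (0.056), Rgs22 (-0.20), Chrm5 (-0.0096), Chrm1 (0.41), Calb1 (-0.079), Mpped1 (0.015), C1ql2 (0.0068), Enpp2 (0.18), Aqp1 (0.15), Hbb (0.76) and Hbb-bs (0.30). Slc17a6 was 0.0014 with column run, 0.034 with the continuous score, 0.013 with Chrnb4 alone and 0.011 with Chrna3 alone, 0.0067 with ranks within batch and run and 5.7e-06 without batch 6. With the myelin mean these were Hykk (-0.14), Wfs1 (-0.057), Slc4a5 (-0.16), Opalin (0.17) and Hbb-bs (0.11). Opalin and Mal alone make up that mean, so their differences in that fit are equal and opposite by arithmetic. With the number of genes at 0, Enpp2 was 0.013 and Aqp1 0.043, with the thalamus mean Aqp1 was 0.0038, and with narrower ends Enpp2 was 0.030 and Aqp1 0.32. With Chrnb4 alone Ntng1 was 0.0077, and with Chrna3 alone Ntng1 was 0.015 and Hykk -0.055. With ranks within batch and run Ntng1 was 0.018, and with the continuous score Itgam was 0.0071 and Slc32a1 0.025. Without batch 2, Chrm5 was -0.023, Hykk -0.093, Enpp2 0.027 and Aqp1 0.11. Without batch 3, Enpp2 was 0.044, Aqp1 0.31 and Mia -0.094. Without batch 4, Chrm5 was -0.026, Hykk -0.015, Enpp2 0.13 and Aqp1 0.29. Without batch 6, Slc4a5 was -0.31 and Slc32a1 0.0064. Without the rat of lowest score, Enpp2 was 0.0094 and Aqp1 0.061, and with the recovered total Aqp1 was 0.13 and Hbb-bs 0.012.

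No paired analysis was possible because every rat is a separate animal of 1 batch, and its number says only its place in the labels.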

Other observations

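Families of genes were counted after the values had been seen, so the counts describe these rats and carry no test. Beside each, 5.85% of genes with a symbol were higher and 4.18% lower. Of 16 potassium channel subunits and partners, Kcnma1 and Kcnn3 were higher and Kcnj16 was lower. Kcnn3, a small-conductance calcium-activated channel, differed by 0.35 (SE 0.0705, limma adjusted p 0.000616), and 15 of 26 rich rats lay above every poor rat, but the call was lost without batch 4 (limma adjusted p 0.107). Of 8 semaphorins and plexins, Sema3e and the receptor gene Plxnc1 (0.49, limma adjusted p 0.000124) were higher and Sema4d was lower by -0.13. Of 5 ephrins and Eph receptors, Epha8 (0.46) and Epha7 (0.25) were higher and the ligand gene Efna1 was lower. Without batch 4, Epha8 was at 0.20 (limma adjusted p 0.565) and Epha7 at 0.15 (limma adjusted p 0.528), and both calls were also lost with the myelin covariate (0.209 and 0.347). Within batches Epha8 differed by between -0.02, in batch 3, and 0.95, in batch 4. Of 7 Wnt ligands, receptors and secreted frizzled-related proteins, the receptor gene Fzd1 was higher by 0.56 (SE 0.0554, limma adjusted p 1.31e-10), and Sfrp2 and Wnt3 were lower. Of 8 regulators of G-protein signalling, Rgs6 (0.59, limma adjusted p 7.15e-10) and Rgs22 (0.50) were higher. The calls on Rgs22, Sema4d and Wnt3 were lost without batch 2 (limma adjusted p 0.144, 0.1 and 0.197) or batch 6 (0.0947, 0.0665 and 0.257), and that on Epha7 also without batch 2 (0.186). Without batch 4, Rgs22 and Wnt3 lost it too (limma adjusted p 0.248 and 0.103). Wnt3 was close to the threshold in the main fit (limma adjusted p 0.0485). Its call was also lost with sex (0.0519) or column run (0.0549) as a covariate and in further alternatives. Of 14 ribosomal protein, 13 respiratory chain, 11 cadherin and 6 calcium channel genes, 0 passed the threshold in either direction with limma. Of all genes, 3818 had an unadjusted p under 0.05. The median differences of these 4 families were -0.17, -0.16, -0.033 and -0.087, beside -0.0084 for genes with a symbol. Medians below 0 were not particular to the families without a call. The Wnt family above had -0.12, the regulators of G-protein signalling -0.053 and the potassium channel genes -0.012. Semaphorins and plexins had 0.0062, and ephrins and Eph receptors 0.061.

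Single genes of receptors and transmission were also picked after their values had been seen. Of 3 serotonin receptor genes with a symbol Htr3a alone was called, of 5 GABA receptor genes Gabbr2, and of 5 glutamate receptor genes Grm6. The median differences of these families were -0.13, -0.026 and -0.051. Of 5 synaptotagmins and copines, Syt6 and Cpne9 were higher, at a family median of -0.056. Htr3a, a subunit of the serotonin-gated channel, was at 7.70 to 8.76 (median 8.30) in rich and 7.15 to 8.34 (median 7.76) in poor rats and differed by 0.53 (SE 0.0707, limma adjusted p 2.42e-07). Gabbr2, a subunit of the metabotropic GABA receptor, which is abundant in the medial habenula, was at 13.05 to 13.82 (median 13.58) against 12.59 to 13.48 (median 13.15), a difference of 0.36 (SE 0.0468, limma adjusted p 8.47e-08). Cadps2, a priming factor for dense-core vesicles, differed by 0.55 (limma adjusted p 3.27e-12), with 22 of 26 rich rats above every poor rat. Sstr4, a somatostatin receptor, differed by 0.55, Gpr149 by 0.57, the synaptotagmin Syt6 by 0.57, and Rasgrp1, a Ras exchange factor, by 0.61. The glutamate receptor gene Grm6 differed by 0.46, a call lost without batch 2, 4 or 6 (limma adjusted p 0.185, 0.247 and 0.123). Etv1, a transcription factor of the ETS family, differed by 0.54 (limma adjusted p 3.47e-09) and by 0.47 to 0.65 in each batch. Dclk1, a microtubule-associated kinase, differed by 0.51 and the amino acid transporter gene Slc6a15 by 0.30.

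Among lower genes chosen in the same way, Itih3 had the clearest separation. It encodes a heavy chain of a hyaluronan-binding inhibitor, and 14 of 26 rich rats lay below every poor rat, at a difference of -0.25 (SE 0.0384, limma adjusted p 5.23e-06). Car2, a carbonic anhydrase, differed by -0.26, Rlbp1, a retinaldehyde-binding protein, by -0.26, and Gltp, a glycolipid transfer protein, by -0.25. Without batch 2 these 3 calls were lost (limma adjusted p 0.0614, 0.138 and 0.0645), and with the myelin covariate the differences were -0.12, -0.12 and -0.07, with no call. The calls on Car2 and Gltp were also lost without batch 4 (limma adjusted p 0.102 and 0.0883).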
